A study of Mus musculus with 6 samples.

Results

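The neuropeptide and neurotransmitter axis of lung group 2 innate lymphoid cells (ILC2s) was followed through 8 genes of the 16588 in the deposited count table. These were the peptide precursors Calca and Penk, the prohormone protease Pcsk1, and the receptor genes Nmur1, Calcrl, Ramp1, Ramp3 and Vipr2. They were picked by symbol with results of the same comparison known, so their values are given as a description, with no p-value. How many passed the test run over all genes is counted once, beside the share of all genes that did, and supports nothing. All 8 had a row in the table and all 8 passed the filter on low counts.

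RNA was sequenced from 6 libraries, 3 of the strain C57BL/6 (WT, wild type) and 3 labelled Cnr2 KO, a knockout that names the gene of the cannabinoid receptor CB2. The latter are called the KO-labelled libraries below. Mice of both groups had been given 0.5 µg of recombinant mouse IL-33 through the nose on each of 3 days. Lung cells were taken on day 4, and sorted ILC2s were kept in culture for 18 h. The labels give no age, sex, allele or strain background of the knockout, and they do not tie a replicate to an animal or a culture, so the p-values cover the spread among these libraries alone, and that may be technical. The series title speaks of adipose tissue, but each sample is labelled lung.

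Neuropeptides are cut from larger precursor proteins by prohormone convertases and act on G protein-coupled receptors. In lung, ILC2s lie close to nerves and neuroendocrine cells. Neuromedin U, acting through Nmur1, and vasoactive intestinal peptide (VIP) are known to activate them, whereas calcitonin gene-related peptide (CGRP) is known to restrain parts of their response. CGRP binds a receptor made of Calcrl and the accessory protein Ramp1. Calcrl with Ramp2 or Ramp3 binds adrenomedullin instead.

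The promoter windows are shown first because 3 of the 8 held a short word, which is also in 20.8% of all promoter windows. RefSeq (GRCm38.p6) gave windows of 300 bases, from 250 before to 50 after a start site, for 7 of the 8 genes (8 windows, 2 of them for Nmur1); Penk was the member without one. Windows were searched on both strands for the cAMP response element TGACGTCA, its short form TGACG, the AP-1 word TGANTCA, an NF-kB form (GGG and CC with any 5 bases between) and the GATA word AGATAA. The full cAMP response element contains the short form on each strand. The windows of Pcsk1, Calca and Ramp1 held the short form, which is in capitals below as TGACG or, on the other strand, CGTCA. They lie at chr13:75089607-75089906 (plus strand), chr7:114636308-114636607 (minus strand) and chr1:91179572-91179871 (plus strand), each printed 5′ to 3′ along its gene.
Pcsk1: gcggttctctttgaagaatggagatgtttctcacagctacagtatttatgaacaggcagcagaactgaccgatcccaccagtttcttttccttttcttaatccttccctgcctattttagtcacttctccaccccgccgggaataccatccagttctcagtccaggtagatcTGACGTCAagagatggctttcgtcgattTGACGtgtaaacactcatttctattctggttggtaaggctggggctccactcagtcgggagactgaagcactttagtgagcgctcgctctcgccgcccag
Calca: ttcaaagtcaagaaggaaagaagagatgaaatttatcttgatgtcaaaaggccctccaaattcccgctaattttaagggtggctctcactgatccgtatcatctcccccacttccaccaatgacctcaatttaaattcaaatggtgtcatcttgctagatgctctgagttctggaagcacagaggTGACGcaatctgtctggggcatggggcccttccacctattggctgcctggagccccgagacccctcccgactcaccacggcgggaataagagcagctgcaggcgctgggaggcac
Ramp1: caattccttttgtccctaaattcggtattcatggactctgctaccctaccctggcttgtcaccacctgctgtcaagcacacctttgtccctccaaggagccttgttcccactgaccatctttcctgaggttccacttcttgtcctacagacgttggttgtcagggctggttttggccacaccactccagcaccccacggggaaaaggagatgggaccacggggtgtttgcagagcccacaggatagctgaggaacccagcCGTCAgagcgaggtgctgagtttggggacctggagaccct

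In the Pcsk1 window the full cAMP response element began 78 bases before the start site and a further short form began 50 bases before it. The short form of Calca began 65 bases before the start site, and that of Ramp1 10 bases after it. The full element was in 1 of the 8 windows and in 1.79% of all 32851 promoter windows of the same length. The short form was in 3 of the 8 and in 20.8% of all. The NF-kB form was in 5 of the 8 windows (Ramp3, Vipr2, Calca and both of Nmur1) and in 50.8% of all. The GATA word was in 1 (Calca, 11.2% of all) and the AP-1 word in 0 (7.81% of all). These are matches of letters, not binding sites.

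As for the libraries as a whole, total counts ran from 17867541 to 19399819 in 5 of them, and WT replicate 2 was 6.88 times as deep as their mean, with 129617689. For Cnr2, the named target, 76, 503 and 60 reads were counted in WT and 147, 139 and 135 in the KO-labelled libraries. In CPM, counts scaled to a common library total, these were 3.68 ± 0.448 and 7.48 ± 0.0626 (SD, n = 3 each), and the target thus rose where the label names a knockout (log2 fold change 1.01, SE 0.16, adjusted p of edgeR's test 2.11e-05). The table has 1 value per gene and the labels give no allele. Neither what the knockout allele leaves of the Cnr2 transcript nor an exchange of labels could be checked. If labels were exchanged, each direction given here would turn. Pcsk1 and Nmur1, for example, would then be lower and Penk higher in the knockout. All values printed as mean ± SD are over 3 libraries. Of 12150 genes tested, 66.3% passed edgeR's quasi-likelihood test at an adjusted p under 0.05, 33.1% as higher and 33.2% as lower in the KO-labelled libraries. The median log2 fold change of all genes tested was 0.01 and the median of its absolute value 0.40.

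All 10 ILC2 markers looked for had a row, and they gave sums of 12786 ± 259.9 (WT) and 11985 ± 619.6 CPM (KO-labelled), lower in each KO-labelled library than in each WT library. Most of the sum came from Il5, at 5281 ± 273.3 and 5350 ± 460.8 CPM, and Il2ra. By edgeR's test at an adjusted p under 0.05, 7 of the 10 rose, Gata3 3.72-fold, Thy1 3.94-fold, Rora 2.24-fold, Icos 2.02-fold, Il1rl1 1.71-fold, Klrg1 1.65-fold and Il7r 1.32-fold. Il2ra fell 2.03-fold and Il13 1.88-fold, and Il5 did not pass. Thy1 was low, at 0.919 ± 0.0651 and 3.68 ± 0.225 CPM. Of the 9 marker lists for other cell types, 8 had groups that did not overlap, 6 higher and 2 lower in the KO-labelled libraries (exact permutation p = 0.1 each, two-sided, the smallest 3 against 3 can give, and 0.111 after adjustment over 10 lists). The fibroblast list overlapped (p = 0.6, exact permutation test). In bulk RNA such as this, fewer cells of a type and less RNA per cell cannot be told apart.

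Of the 8 genes, 6 were higher and 1 was lower at an adjusted p under 0.05, and 1 did not pass, beside 66.3% of all genes tested. In 6 of them each KO-labelled library lay above each WT library and in 2 each lay below, beside 34.1% and 34.8% of all genes tested (68.9% without overlap in either direction). At least 2-fold differences were found in 6 of the 8 (5 higher, 1 lower), beside 16.6% of all genes tested. Since the 8 were chosen on this comparison, nothing is read from these shares.

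**Figure D1:**
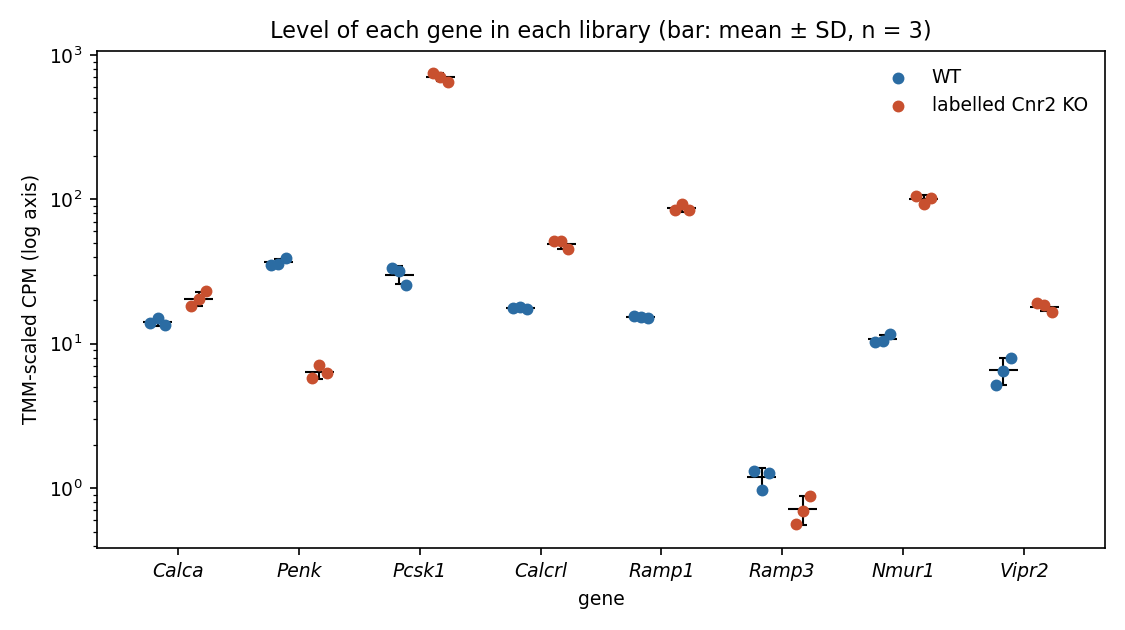
TMM-scaled CPM of each gene (log axis) in each of the 3 WT and 3 KO-labelled libraries, with points for libraries and bars for mean ± SD. Pcsk1 shows the widest gap, from 25.4 to 33.2 CPM in WT to 653.8 to 744.5 CPM in the KO-labelled libraries, and only Penk and Ramp3 are lower there.

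Among the peptide precursors, Penk was lower and Calca somewhat higher in the KO-labelled libraries. Penk (ENSMUSG00000045573.9, chromosome 4, 4133531 to 4138819, GRCm38) encodes proenkephalin, the source of the opioid peptides met-enkephalin and leu-enkephalin. It stood at 35.1, 35.9 and 39.0 CPM in WT replicates 1, 2 and 3 and at 5.75, 7.15 and 6.32 CPM in the KO-labelled libraries. The groups lay far apart, and no library of either came near the other. The means were 36.6 ± 2.05 and 6.40 ± 0.706 CPM, a 5.72-fold lower level (log2 fold change -2.51, SE 0.10).

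Calca (ENSMUSG00000030669.13, chromosome 7, 114631478 to 114636357) encodes both calcitonin and CGRP through alternative splicing. It was at 13.8, 15.1 and 13.4 CPM in WT and at 18.3, 20.3 and 23.1 CPM in the KO-labelled libraries. The groups did not overlap, although WT replicate 2 and KO-labelled replicate 1 were only a few CPM apart. The means were 14.1 ± 0.863 and 20.5 ± 2.43 CPM, 1.44-fold higher (log2 fold change 0.53, SE 0.10). The table gives 1 value per gene, so calcitonin and CGRP transcripts were not separated. Calcb, a close relative of Calca beside it in the genome, had no row in the table used here.

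Pcsk1 (ENSMUSG00000021587.5, chromosome 13, 75089826 to 75134861) encodes prohormone convertase PC1/3, which cuts precursors such as proenkephalin at pairs of basic residues in the regulated secretory pathway. Its counts were 633, 4098 and 481 in WT and 14509, 13160 and 11802 in the KO-labelled libraries. After scaling these were 33.2, 31.7 and 25.4 CPM against 744.5, 702.3 and 653.8 CPM. The lowest KO-labelled library was thus many times above the highest WT library. The difference was 23.0-fold (log2 fold change 4.53, SE 0.08), rank 73 of 12150 by absolute size.

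The enzyme and its substrate therefore stood in opposite order in the 2 groups. Per kilobase of exon, the Penk level was 3.62 to 5.26 times that of Pcsk1 in the WT libraries. In the KO-labelled libraries, the Pcsk1 level was 28.6 to 37.8 times that of Penk.

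Nmur1 was the receptor with the largest difference of the 5. Nmur1 (ENSMUSG00000026237.5, chromosome 1, 86386303 to 86426228) encodes the neuromedin U receptor, which couples to Gq and calcium release. It was at 10.2, 10.5 and 11.6 CPM in WT and at 105.7, 93.1 and 102.0 CPM in the KO-labelled libraries. Both groups were tight, and the gap between them was several times as wide as the range of either. The level was 9.38-fold higher (log2 fold change 3.23, SE 0.08), rank 184 by absolute size. The ligand gene Nmu and the second receptor gene Nmur2 had no row in the table used here.

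The CGRP receptor pair Calcrl and Ramp1 was higher in the KO-labelled libraries, with Ramp1 further apart than Calcrl. Calcrl (ENSMUSG00000059588.13, chromosome 2, 84330626 to 84425411), the receptor chain, was at 17.7, 18.0 and 17.3 CPM in WT. It was at 51.5, 51.1 and 45.0 CPM in the KO-labelled libraries, 2.78-fold higher (log2 fold change 1.47, SE 0.08). No library crossed between the groups, and the 3 WT values were nearly equal.

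Ramp1 (ENSMUSG00000034353.14, chromosome 1, 91179822 to 91225196), the partner that gives Calcrl its CGRP specificity, was at 15.6, 15.4 and 15.2 CPM in WT. In the KO-labelled libraries it was at 83.7, 92.7 and 83.9 CPM, 5.64-fold higher (log2 fold change 2.49, SE 0.07). Its groups were again clearly separate. Per kilobase of exon, the ratio of Ramp1 to Calcrl was 1.38 to 1.42 in the WT libraries and 2.63 to 3.01 in the KO-labelled libraries.

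Ramp3 (ENSMUSG00000041046.7, chromosome 11, 6658521 to 6677475) directs Calcrl to adrenomedullin and was the scarcest of the 8 genes. It had 25, 126 and 24 counts in WT and 11, 13 and 16 in the KO-labelled libraries, or 1.31, 0.975 and 1.27 CPM against 0.564, 0.694 and 0.886 CPM. The values of the groups did not cross, but WT replicate 2 and KO-labelled replicate 3 were close. The log2 fold change was -0.68 (SE 0.37), and this was the gene of the 8 not counted as higher or lower at an adjusted p under 0.05. Its spread relative to the mean was 22.7% in the KO-labelled libraries, the highest of the 8 genes in either group.

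Ramp2, no member but the third protein of the family, had 53, 240 and 27 counts in WT and 4, 8 and 9 in the KO-labelled libraries. It fell 5.30-fold (log2 fold change -2.41, SE 0.41, edgeR adjusted p = 4.25e-05), although its gene model overlaps that of Vps25 on the same strand, so its reads are uncertain. Per kilobase of exon, Ramp1 made up 74.3 to 80.1% of the 3 Ramp genes in the WT libraries and 97.2 to 98.3% in the KO-labelled libraries. Adm, the adrenomedullin gene, had 6, 59 and 7 counts in WT and 0 in each KO-labelled library. Adm did not pass the filter on low counts and was not tested. An assumed floor of 3 counts for the 3 KO-labelled libraries together equals 0.0533 CPM. The WT mean of Adm, 0.380 ± 0.0714 CPM, was 7.13 times that floor, and this figure does not allow for the spread in WT. Crcp, a further component linked to CGRP receptor signalling, fell from 54.9 ± 3.55 to 42.4 ± 1.11 CPM (edgeR adjusted p = 8.43e-05).

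Vipr2 (ENSMUSG00000011171.11, chromosome 12, 116077726 to 116146261) encodes VPAC2, a receptor for VIP that raises cAMP. It was at 5.20, 6.44 and 7.97 CPM in WT and at 19.1, 18.5 and 16.7 CPM in the KO-labelled libraries. The groups were separate, and the WT libraries were spread more widely, with an SD of 21.3% of the mean. The level was 2.78-fold higher (log2 fold change 1.47, SE 0.13). An antisense gene over Vipr2, Gm20658, went from 0.268 ± 0.0883 to 2.66 ± 0.633 CPM, and without a stated strand setting the reads of the pair cannot be told apart. The other VIP receptor gene, Vipr1, had 1, 9 and 1 counts in WT and 8, 0 and 1 in the KO-labelled libraries, too few to test. Vip and Adcyap1r1, which encodes the receptor of the related peptide PACAP, had no row in the table used here.

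**Figure D2:**
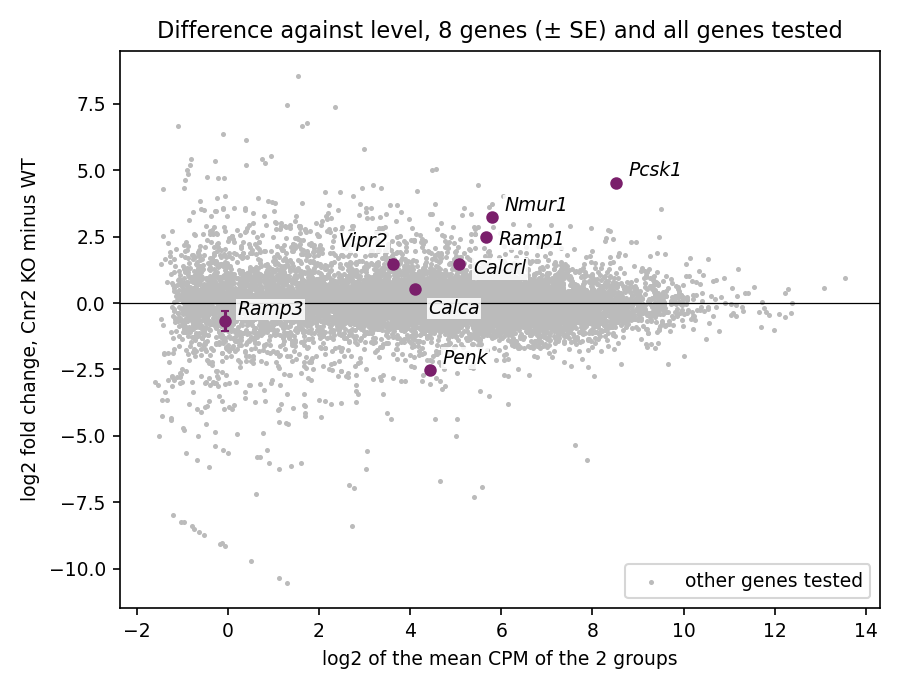
Log2 fold change (Cnr2 KO minus WT, ± SE) against the log2 of the mean CPM of the 2 groups, for the 8 genes (labelled) and all 12150 genes tested (grey). Pcsk1 stands at 4.53 among well-counted genes, Calca at 0.53 lies within the bulk of genes, and Ramp3 at -0.68 is near the low end of the level axis.

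Compared per kilobase of exon, the order of the 8 genes differed between the groups. In WT, Penk was highest, at 22.4 ± 1.26 CPM per kilobase, followed by Calca (8.37 ± 0.513), Nmur1 (6.35 ± 0.439), Pcsk1 (5.37 ± 0.740), Ramp1 (5.09 ± 0.0802), Calcrl (3.62 ± 0.0678), Vipr2 (1.46 ± 0.312) and Ramp3 (0.858 ± 0.133). The library ranges of Pcsk1 and Ramp1 overlapped, and those of all other neighbours in this order were separate. In the KO-labelled libraries, Pcsk1 led at 124.9 ± 8.10 CPM per kilobase, followed by Nmur1 (59.2 ± 3.81) and Ramp1 (28.7 ± 1.70). Calca (12.2 ± 1.44), Calcrl (10.1 ± 0.741), Vipr2 (4.05 ± 0.283), Penk (3.92 ± 0.432) and Ramp3 (0.518 ± 0.117) came after. There the ranges of Vipr2 and Penk overlapped, and without KO-labelled replicate 1 these 2 changed places. Penk thus went from rank 1 to rank 7, and Pcsk1 from rank 4 to rank 1.

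**Figure D3:**
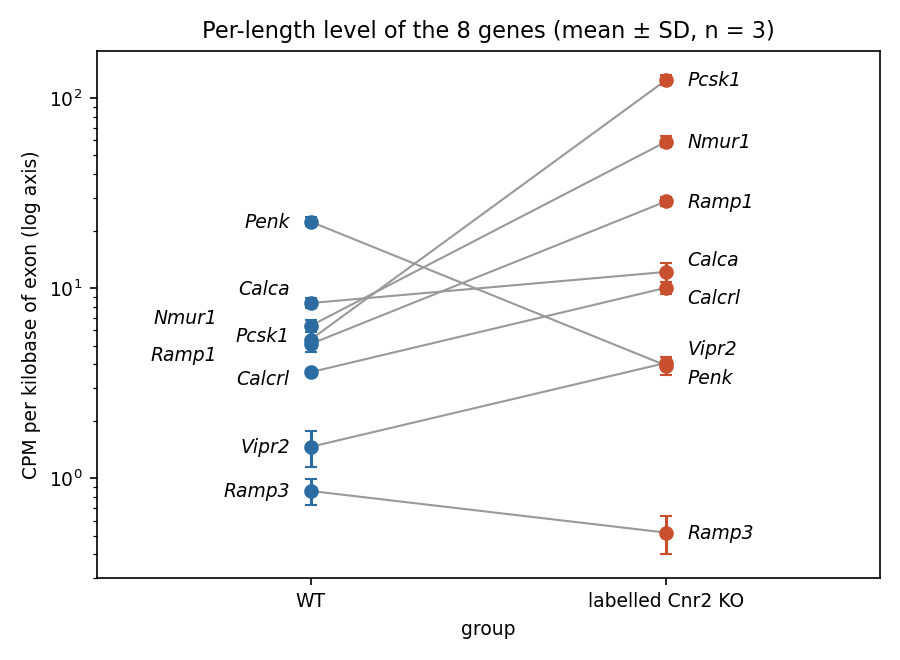
Level of the 8 genes in CPM per kilobase of exon (log axis) in WT and in the KO-labelled libraries, as mean ± SD of 3 libraries, with a line for each gene. The Penk line falls from 22.4 to 3.92 and crosses those of Pcsk1, Nmur1, Ramp1, Calca, Calcrl and Vipr2, ending just below that of Vipr2.

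Markers of cells other than ILC2s that carry these genes were read beside them. Of 8 pulmonary neuroendocrine markers, which belong to lung cells known to make CGRP, 6 had no row, Chga and Insm1 among them. The list's sum, from Uchl1 and Syp, ranged from 5.74 to 7.35 CPM in WT and from 9.19 to 11.5 CPM in the KO-labelled libraries, the same direction as Calca. Of 8 endothelial markers, which belong to cells known for Calcrl, Ramp2 and Ramp3, Cdh5, Kdr, Tek, Cldn5 and Emcn had no row. Each of these had under 10 counts in total. The sum of the list was almost all Pecam1, at 109.1 ± 4.48 and 39.6 ± 0.568 CPM. It ranged from 113 to 121 CPM in WT and from 41.8 to 43.3 CPM in the KO-labelled libraries. That was opposite to Calcrl and in the direction of Ramp2. Ramp3 did not pass the test (log2 fold change -0.68, SE 0.37), so no direction is matched for it. The neuron and glia list stayed under 2 CPM in each library. The sum of T cell markers ranged from 59.4 to 62.3 CPM (WT) and from 109.6 to 116.5 CPM (KO-labelled), with no row for Cd4, Cd8a or Cd8b1. Most of that sum was Trbc2, Trbc1 and Cd3g, which rose, whereas Trac fell 3.14-fold, from 1.48 ± 0.282 to 0.463 ± 0.204 CPM (edgeR adjusted p = 1.28e-03). Macrophage and dendritic cell markers ranged from 11.02 to 14.24 and from 26.0 to 29.5 CPM, mostly Xcr1, with no row for Csf1r or Marco. Of that list Xcr1 and Cd68 passed as higher, and 5 genes were too scarce to test. Among these, Zbtb46 went the other way, with 15, 53 and 14 counts in WT and 6, 6 and 2 in the KO-labelled libraries. Adgre1 and Lyz2 were higher in each KO-labelled library in CPM, and Flt3 and Itgax overlapped. Epithelial markers ranged from 12.6 to 27.0 and from 45.6 to 51.6 CPM, with no row for Sftpc, Sftpa1 or Scgb1a1. Of that list only Epcam rose, from 10.9 ± 0.440 to 46.4 ± 3.12 CPM. Krt18 fell 2.90-fold (edgeR adjusted p = 7.20e-04), Krt8 had 164, 247 and 0 counts in WT and 0 in each KO-labelled library, and Cdh1 had 32, 79 and 1 against 1, 4 and 0. Krt8 and Cdh1 did not pass the filter on low counts. The B cell list rested on Cd79b, with no row for Ms4a1 (16.1 to 17.2 and 25.0 to 26.3 CPM). The mast cell, basophil and eosinophil list ranged from 1.57 to 3.43 and from 3.69 to 4.32 CPM, with Cpa3 and Fcer1a higher and Mcpt8 3.45-fold lower (edgeR adjusted p = 4.57e-04). The part of these cells in the levels of the 8 genes was not tested.

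Beyond the 8 genes, the wider axis was read from 6 lists with 245 genes, of which 115 had a row in the table and 76 were tested. Of the 76, 30 rose and 24 fell in the KO-labelled libraries, 71.1% in all beside 66.3% of all genes tested, and their median log2 fold change was 0.20 against 0.01. All p-values below are adjusted p-values of edgeR's quasi-likelihood test over all genes tested, with n = 3 libraries per group.

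Precursors of other neuropeptides were near or below detection. Of 38 listed, 28 had no row, among them Vip, Nmu, Calcb, Tac1, Npy and Sst. A single one, Nmb, which encodes neuromedin B, was counted well enough to test, at 2.71 ± 1.12 and 3.58 ± 0.435 CPM (adjusted p = 0.177). The list therefore had 0 calls in edgeR, with 0 at an unadjusted p under 0.05 and 0 in DESeq2 and limma-voom. The count of higher calls was 1 without WT replicate 1 or without KO-labelled replicate 3, and 2 without WT replicate 3.

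Peptide-processing and peptide-degrading enzymes went in both directions, with 4 of 19 higher and 8 lower (63.2% called, beside 66.3% of all genes tested). Furin, the convertase of the constitutive secretory pathway, fell from 2645 ± 134.8 to 1879 ± 131.9 CPM, 1.41-fold (adjusted p = 6.90e-08). Per kilobase of exon, Furin made up 87.4 to 88.5% of 7 convertases in the WT libraries and 54.4 to 55.6% in the KO-labelled libraries. The share of Pcsk1 among the same 7 was 1.47 to 1.78% and 33.5 to 33.8%. Pcsk7, another convertase, rose 1.64-fold (adjusted p = 5.29e-09), and Cpd, a carboxypeptidase that trims convertase products, fell 1.45-fold (adjusted p = 3.32e-08). Genes with a row overlap Furin (Gm44851) and Pcsk7 (Rnf214 and Tagln) on the opposite strand. Without a stated strand setting, the reads of Furin and Pcsk7, and so the convertase shares, are uncertain. Thop1 and Prep, peptidases that break down short peptides, fell 3.11-fold and 1.86-fold (adjusted p = 3.60e-14 and 3.45e-12).

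Pam and Cpe, which finish peptides after Pcsk1, were scarce. This did not hold for Cpd, whose mean was 406 CPM (WT) and 279 CPM (KO-labelled). Pam, which amidates CGRP and other peptides, stood at 0.881 ± 0.163 and 1.14 ± 0.211 CPM (adjusted p = 0.358). Cpe, the carboxypeptidase of the regulated pathway, had 25, 28 and 8 counts in WT and 25, 19 and 15 in the KO-labelled libraries (log2 fold change 0.99, adjusted p = 0.129). The call for Cpe depended on the libraries kept and on the method. Without WT replicate 1 Cpe passed as higher (log2 fold change 1.92, adjusted p = 4.39e-03). With all libraries kept, it also passed as higher in limma-voom (adjusted p = 0.0175). Over the 12 alternatives that kept Cpe its adjusted p ran from 4.39e-03 to 0.688. Scg5 and Pcsk2, a chaperone and its convertase, had no row in the table used here.

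Of 54 other neuropeptide receptor and accessory genes, 14 had a row and 5 were tested. Of these 1 rose and 3 fell (80% called, beside 66.3% of all genes tested). Ramp2 and Crcp are given above. Avpr2, a vasopressin receptor that raises cAMP, rose on few reads, with 5, 20 and 2 counts in WT and 29, 15 and 14 in the KO-labelled libraries (log2 fold change 2.61, SE 0.51, adjusted p = 1.63e-04). Ogfr, a receptor for met-enkephalin unrelated to the classic opioid receptors, fell 1.13-fold, from 66.0 ± 1.71 to 58.4 ± 1.98 CPM (adjusted p = 0.0154). That call rested on KO-labelled replicate 1, without which the adjusted p was 0.0652 (0.0131 to 0.0652 over 13 alternatives). The classic opioid receptor genes Oprm1, Oprd1 and Oprk1 had no row in the table used here.

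Receptors for small neurotransmitters were split, with 3 of 9 tested genes higher and 3 lower (66.7% called, beside 66.3% of all genes tested). Htr1b, a serotonin receptor, rose 2.32-fold to 14.2 ± 1.93 CPM (adjusted p = 1.64e-07). Grin2d, an NMDA receptor subunit, rose 3.92-fold (adjusted p = 1.85e-07), and Gabbr1, a GABA-B receptor chain, 2.30-fold (adjusted p = 8.20e-05). Htr2a, another serotonin receptor, fell 1.59-fold (adjusted p = 0.0295). Hrh2, a histamine receptor, fell 1.57-fold (adjusted p = 5.44e-03), although its library values overlapped between the groups. The nicotinic receptor gene Chrna7 and the muscarinic genes Chrm1, Chrm2 and Chrm3 had no row in the table used here.

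Enzymes and transporters of neurotransmitters changed in 13 of 14 tested genes, 6 higher and 7 lower (92.9% called, beside 66.3% of all genes tested). Tph1, the first enzyme of serotonin synthesis, fell from 116.3 ± 4.18 to 15.9, 18.8 and 18.5 CPM in the KO-labelled libraries, 6.55-fold (adjusted p = 3.44e-16). Ddc, the next enzyme of that pathway, fell 2.32-fold (adjusted p = 2.99e-04). Gch1, the first enzyme in making the cofactor of Tph1, rose 1.63-fold (adjusted p = 5.32e-08). Other enzymes of that cofactor went both ways. Pts rose 1.30-fold (adjusted p = 1.65e-03), whereas Spr fell 1.77-fold and Qdpr 1.37-fold (adjusted p = 2.17e-06 and 3.86e-07). Maob, which breaks down monoamines, rose 7.09-fold from 2.57 ± 0.335 to 18.3 ± 3.66 CPM (adjusted p = 1.71e-11).

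Its relative Maoa was 1.73-fold lower (adjusted p = 0.0249), but the call was lost when single libraries were left out. Its adjusted p was then 0.0824 (WT replicate 1), 0.0815 (WT replicate 2), 0.0659 (KO-labelled replicate 2) or 0.0605 (KO-labelled replicate 3), and 0.0184 to 0.0824 over the 12 alternatives that kept Maoa. Slc6a6, a taurine transporter, fell 1.47-fold (adjusted p = 2.35e-08). Slc18a2, which loads monoamines into vesicles, stood at 2.71 ± 0.359 and 3.21 ± 0.696 CPM (adjusted p = 0.417). Chat, which makes acetylcholine, had no row in the table used here.

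Genes that couple the receptors to second messengers were mostly higher. Of 36 listed, 33 had a row, and of the 28 tested 16 rose and 3 fell, with a median log2 fold change of 0.57. That is 67.9% called, beside 66.3% of all genes tested (33.1% higher and 33.2% lower). Gnas, the stimulatory G protein subunit used by the CGRP and VIP receptors, rose from 654.9 ± 47.6 to 963.9 ± 15.2 CPM (adjusted p = 7.72e-09). Gnal, of the same stimulatory class but scarce, fell 2.01-fold (adjusted p = 2.85e-03). The inhibitory subunit gene Gnai2 rose 1.61-fold (adjusted p = 4.66e-10), and Gnai1 and Gnai3 did not pass. Adcy7, an adenylyl cyclase, rose 1.80-fold (adjusted p = 4.24e-12), and Prkacb, a catalytic subunit of protein kinase A, 1.83-fold (adjusted p = 1.23e-10). Nmur1 signals through the Gq class, of which Gnaq stood at 8.10 ± 1.16 and 8.60 ± 0.617 CPM (adjusted p = 0.673). Gna11 was at 18.1 ± 2.89 and 20.5 ± 3.00 CPM (adjusted p = 0.233). Of the same class, Gna15 rose from 56.0 ± 3.75 to 87.2 ± 6.31 CPM (adjusted p = 9.54e-08). Gna14 rose from 5.54 ± 1.19 to 19.2 ± 3.36 CPM (adjusted p = 3.82e-09). Plcb4, a phospholipase C downstream of Gq, rose 2.37-fold (adjusted p = 1.68e-11), and Arrb1, a beta-arrestin that switches off such receptors, 2.20-fold (adjusted p = 3.36e-11).

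**Figure D4:**
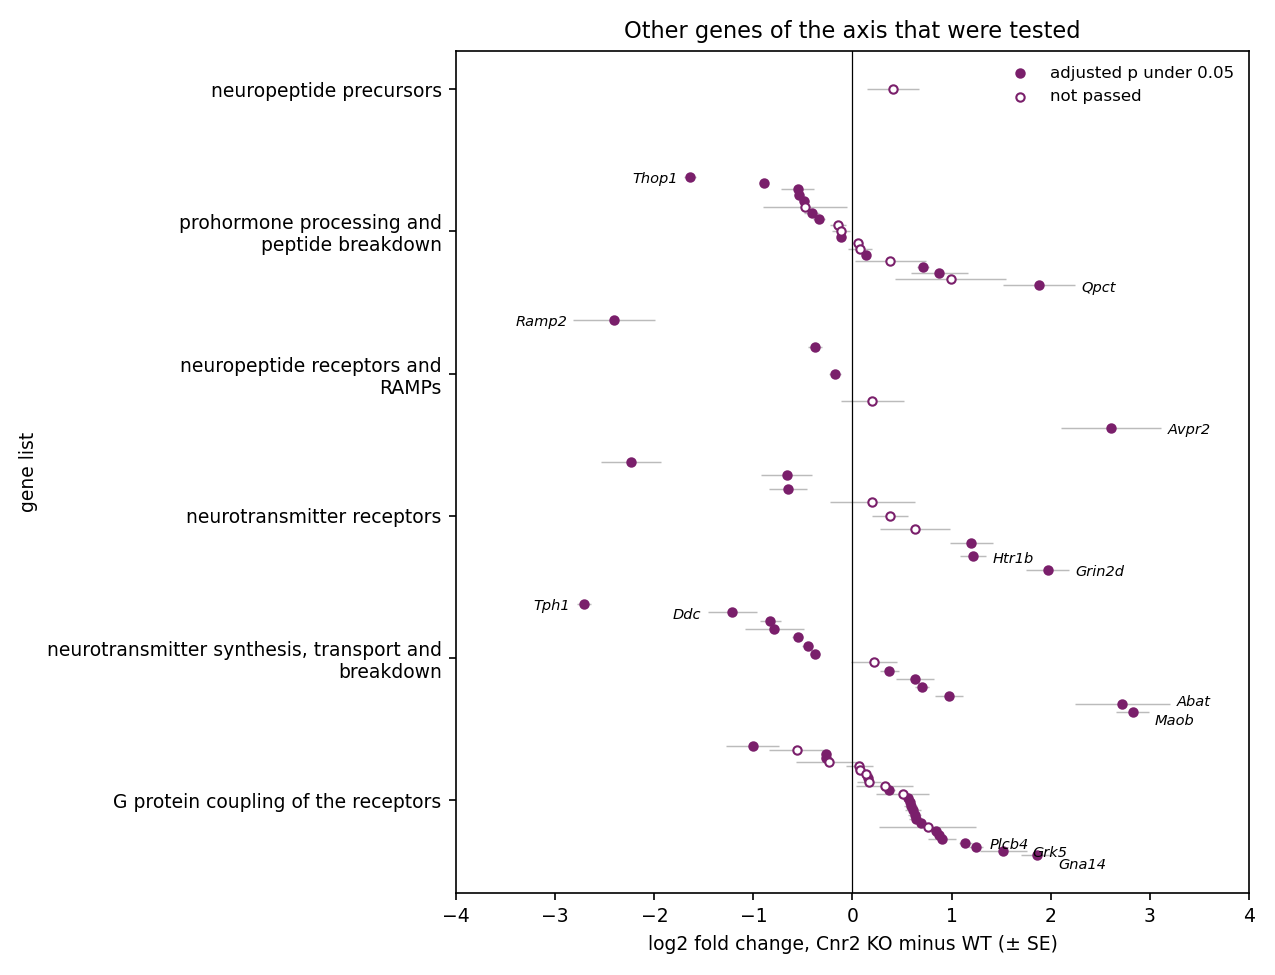
Log2 fold change (Cnr2 KO minus WT, ± SE) of the 76 other genes tested, by list, with filled points for an adjusted p under 0.05 in edgeR and open points for the rest; most genes beyond 1.2 in either direction are named. Tph1 and Ramp2 lie farthest to the left and Maob, Abat and Avpr2 farthest to the right, and the coupling genes lie mostly to the right of 0.

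The 3 genes most alike each member were those with the smallest root mean square difference in centred log2 CPM over the 6 libraries, among genes of at least 5 CPM on average. For Nmur1 these were Serpinb9, Sh3bgrl2 and Tnfsf14 (0.08 to 0.12). For Pcsk1 they were Npas2, Anxa1 and Isg20, which were less alike (0.24 to 0.27). Penk was closest to Zbtb32, Gstm1 and Gpr160 (0.06 to 0.11). Ramp1 was closest to Sytl1, Stat4 and Padi2, and Calcrl to Atp13a2, Plcl1 and Cyp4f16 (0.06 and 0.04 for the closest of each). Calca was closest to Rnaset2a, Nipsnap2 and Rgs1, Vipr2 to Mettl7a1, Prkcb and Eif4e3, and Ramp3 to Cep290, Rpl14 and Nr2c1. None of the 24 was itself one of the 8 genes.

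Genes beside the 8 in the genome did not share one direction with them. Of the 16 nearest tested neighbours, 1 on each side of each gene, 11 were called (68.8%, beside 66.3% of all genes tested), 6 in the direction of the gene they neighbour and 5 against it. Pcsk1 lay 281 kb from Cast, which encodes the calpain inhibitor calpastatin and rose 2.80-fold, and 572 kb from Ell2, which fell (log2 fold change -0.35, adjusted p = 1.92e-04). Calcrl lay 7.44 kb from Tfpi, which fell (log2 fold change -0.96, adjusted p = 1.10e-06) while Calcrl was higher. The neighbours of Nmur1, C130036L24Rik and Ptma, did not pass the test (adjusted p = 0.126 and 0.596).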

How the data were processed

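Per the labels' protocols, cDNA was made with a low-input SMARTer kit. The deposited table holds 1 expected count (an estimate, often not whole) for each gene and library. Between 59.08 and 81.23% of a library's entries were whole to within 0.02. The submitters' processing notes list Partek 10.0, STAR 2.7.8, DESeq2 and mm10 but not which did what. How reads were counted, and with what strand setting, is not stated in the labels.

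Counts were rounded and fitted over the whole table with edgeR 4.0.16 in R 4.3.3 (quasi-likelihood test, TMM scaling, genotype as the only term). The filter was filterByExpr with a minimum count of 10 and minimum total of 15. The same steps were run on simulated counts in which few genes were changed. In these data 66.3% of genes tested passed, so that run does not show how the scaling behaves here. The fit tested 12150 of 16588 genes, with Benjamini-Hochberg adjustment over all genes tested. A level is TMM-scaled CPM. Levels per length divide CPM by the union of a gene's GENCODE M21 exons in kilobases, so they depend on those gene models. The standard error (SE) of a log2 fold change was approximated by dividing its size by the root of F.

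The members and all gene lists were chosen with earlier results of these data known. Named genes were the 8 members, Cnr2, a set of 19 genes, up to 4 called genes with the smallest p in each list, and the 3 most alike genes per member. A gene this rule names is not reported here. Neighbouring genes, ratios between genes, the antisense gene over Vipr2 and other pathway genes named were added after the values were seen. The planned protein comparison was not made, since no protein sequences were used here. Alternatives were other scaling (DESeq2 size factors), no or a stricter filter (50 counts in 3 libraries), DESeq2 1.42.0, limma-voom (limma 3.58.1), a replicate block, leaving out each library, a shorter promoter window, and, chosen after seeing the data, thinning of WT replicate 2. Same-numbered libraries did not deviate together (r = 0.0656, 0.00571 and 0.0429 for replicates 1, 2 and 3 over 12150 genes), so replicate numbers were not taken as pairs.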

Additional observations from a re-analysis of the deposited data

How the results depend on the processing

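The 8 genes kept their direction under every alternative run for each (13, or 12 for Ramp3, which the stricter filter left out). The log2 fold change ranged from 4.43 to 4.57 for Pcsk1, 3.19 to 3.28 for Nmur1, 0.44 to 0.61 for Calca, -2.60 to -2.44 for Penk and -0.87 to -0.54 for Ramp3. With the replicate block, 4061 genes were higher and 4113 lower over the whole table, and 30 and 24 of the pathway genes; a library did not always correlate best with its own number. Some list counts moved. Without a filter, 2 neuropeptide precursors were higher and 1 lower, and 6 neurotransmitter receptors were lower; leaving out single libraries gave 0 to 2 precursors higher. With the stricter filter, which tests fewer genes, 0 neuropeptide receptors and 2 processing enzymes were higher. Without KO-labelled replicate 1, 2 of the 8 genes changed rank per length. In the 150 bases nearest the start site, 4 windows held the NF-kB form and 0 the GATA word. With WT replicate 2 thinned to the depth of the others, Maoa had an adjusted p of 0.0539 (edgeR). The cause of these shifts was not tested where not stated. Depth limits Ramp3, Adm, Avpr2, Cpe and Pam, which rest on few counts.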
